A study of Mus musculus with 80 samples.

Results

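The genes described here were 45 genes of cell division, found by their symbols among the 14688 genes of the count table. All 45 were in the table. They code for the Ki-67 protein (1 gene), origin licensing and the MCM helicase (8), DNA synthesis and nucleotide supply (5), E2F factors with Uhrf1 (3), cyclins with Cdk1 (4), mitotic kinases, the spindle checkpoint and the APC activator (7), the centromere and kinetochore (3), spindle and microtubule proteins (8), condensin with topoisomerase II (4) and cytokinesis (2).

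RNA was taken from the femoral cortical bone, the tibial growth plate and the frontal bone of the skull (calvaria) of female C57BL/6J mice aged 21 days, and the cortical bone was flushed to remove marrow. The mice were WT, MMP2-/-, MMP9-/- or double knockout for both genes (MMPdKO), with no agent given. In the 80 libraries of 33 mice, 12 groups held 5 to 7 libraries each, with 5 of MMP2-/- cortical bone, 6 of MMP2-/- growth plate, 6 of MMPdKO cortical bone and 7 in each other group. The alleles are absent from all cells of the animal, WT and MMP9-/- mice were bought while the MMP2-/- line came from another laboratory, MMPdKO mice were bred from double heterozygotes, and no source used here says that WT mice were littermates of the knockouts. MMP2 and MMP9 are gelatinases, secreted enzymes that cut denatured collagen and other matrix proteins.

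A dividing cell first licenses its replication origins by loading the MCM helicase, then copies its DNA with newly made nucleotides, and then condenses, aligns and separates the chromosomes under the control of cyclins, Cdk1 and the mitotic kinases. Most of these genes are transcribed in waves, with the replication genes driven by E2F factors around the start of S phase and the mitotic genes switched on in G2 and M phase, so that resting cells hold little of their mRNA. In growing bone, dividing cells include the columnar chondrocytes of the growth plate, osteoprogenitors and the blood precursors of the marrow. In a piece of tissue, fewer dividing cells and less mRNA per cell cannot be told apart.

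The promoters of the members carry short elements known for this timing, and the 6 shown here were chosen to display them. TTTGAA is the cell cycle genes homology region (CHR), through which mitotic genes are repressed in resting cells, and TTTCGCGC and TTTGGCGC are forms of the E2F site. RefSeq promoter windows (GRCm38.p6, 250 bases before to 50 after the start) were found for 38 of the 45 members, with 2 or more windows for 3 of them. A member was counted if any of its windows held the element, while the share over all windows counts each window. TTTGAA on either strand was in the windows of 20 of these 38 (52.6%), against 17.9% of all 32851 windows, and CCAAT on either strand was in 30 (78.9%), against 37.4%. Either E2F form was in 8 (21.1%), namely Mcm3, Mcm5, Mcm6, Mcm7, Cdt1, Uhrf1, Cdk1 and Ncapd2, against 0.813% of all windows. The 150 bases before the start are given from 5′ to 3′ on the strand of the gene, with TTTGAA, TTTCGCGC and TTTGGCGC on either strand in capitals. All 6 genes lie on the minus strand, at chr7:135716380-135716529 (Mki67), chr7:48881597-48881746 (E2f8), chr10:69352913-69353062 (Cdk1), chr4:118437344-118437493 (Cdc20), chr11:99024190-99024339 (Top2a) and chr1:128359706-128359855 (Mcm6).
Mki67: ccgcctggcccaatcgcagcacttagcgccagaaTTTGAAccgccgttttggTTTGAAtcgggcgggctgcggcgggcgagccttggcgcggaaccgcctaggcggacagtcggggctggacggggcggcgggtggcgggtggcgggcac
E2f8: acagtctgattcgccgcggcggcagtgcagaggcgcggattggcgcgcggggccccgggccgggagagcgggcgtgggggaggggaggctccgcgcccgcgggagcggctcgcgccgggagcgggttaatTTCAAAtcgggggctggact
Cdk1: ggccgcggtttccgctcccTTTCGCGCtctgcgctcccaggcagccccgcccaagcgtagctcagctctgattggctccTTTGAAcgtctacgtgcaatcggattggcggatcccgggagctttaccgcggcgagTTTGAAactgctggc
Cdc20: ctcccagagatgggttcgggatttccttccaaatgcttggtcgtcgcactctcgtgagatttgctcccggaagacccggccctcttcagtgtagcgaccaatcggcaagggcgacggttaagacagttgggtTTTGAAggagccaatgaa
Top2a: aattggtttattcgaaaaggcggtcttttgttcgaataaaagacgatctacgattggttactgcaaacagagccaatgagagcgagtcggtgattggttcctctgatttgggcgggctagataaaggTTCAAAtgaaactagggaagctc
Mcm6: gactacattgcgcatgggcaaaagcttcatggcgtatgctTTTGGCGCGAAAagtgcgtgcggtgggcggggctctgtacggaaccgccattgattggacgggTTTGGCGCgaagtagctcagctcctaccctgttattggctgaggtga
TTTGAA began 116 and 98 bases before the start of Mki67, 71 and 15 before that of Cdk1, and 18 before that of Cdc20. In E2f8 and Top2a it was on the other strand, 20 and 23 bases before the start. Cdk1 also held TTTCGCGC 131 bases before its start. In Mcm6, TTTGGCGC began 110 and 47 bases before the start, and TTTCGCGC on the other strand overlapped the first of these, which gives the longer run of capitals. Such a match describes the letters only.

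Library totals were 114408 to 1921698 counts (median 651164.5), and 10079 to 14398 genes had at least 1 count. The lowest total was that of MMP9-/- cortical bone replicate 1. As a check of the labels, Mmp2 was at 4.15 to 48.3 CPM (counts scaled to the size of the library) in the libraries labelled MMP2-/- or MMPdKO and at 219 to 944 in the others, and Mmp9 in the growth plate was at 195 to 1010 CPM in MMP9-/- and 277 to 592 in MMPdKO against 1550 to 4040 in the other libraries. The summed CPM of 12 chondrocyte markers was 4950 to 73900 in the growth plates, 1010 to 3890 in the calvariae and 1300 to 12300 in the cortical bones. In 5 growth plate libraries (WT replicates 2, 3 and 7, MMP2-/- replicate 5 and MMP9-/- replicate 7) the mean log2 CPM of these markers was at or below that of the highest bone library (8.12), and the counts of called genes are also given without them. No marker of the erythroid, neutrophil, B cell or chondrocyte lists was at 0 in all libraries of a group.

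The joint level of the 45 members in each library is given as a member score, their log2 CPM averaged with a prior count of 2. In WT mice it was 6.19 ± 0.375 for growth plate, 6.23 ± 0.503 for calvaria and 6.59 ± 0.517 for cortical bone (SD, n = 7 each), and the ranges of the 3 WT tissues overlapped. In the growth plate the score was 5.54 ± 0.55 in MMP2-/- (n = 6), 5.47 ± 0.517 in MMP9-/- (n = 7) and 5.18 ± 0.436 in MMPdKO (n = 7). The MMPdKO growth plates ranged from 4.38 to 5.61 and overlapped the WT range of 5.51 to 6.62 at its lower end. The order of the growth plate means was therefore WT, MMP2-/-, MMP9-/- and MMPdKO, and the 3 knockouts lay within 1 SD of each other. In the calvaria the scores of MMP9-/- (6.28 ± 0.295, n = 7) and MMPdKO (6.26 ± 0.253, n = 7) were close to that of WT, and MMP2-/- was at 5.79 ± 0.272 (n = 7). The lowest WT calvariae (5.46 and 5.82) came from mice 209_20 and 210_20. Labels ending in _20 occur only in WT, all knockout labels end in _21, and the meaning is not stated. The other libraries of _20 mice were at 5.95 (growth plate), 7.04 and 6.82 (cortical bone). In the cortical bone MMP2-/- was at 6.09 ± 0.514 (n = 5), MMP9-/- at 6.08 ± 0.419 (n = 7) and MMPdKO at 6.02 ± 0.374 (n = 6), means below that of WT but inside the WT range of 5.76 to 7.04.

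**Figure D1:**
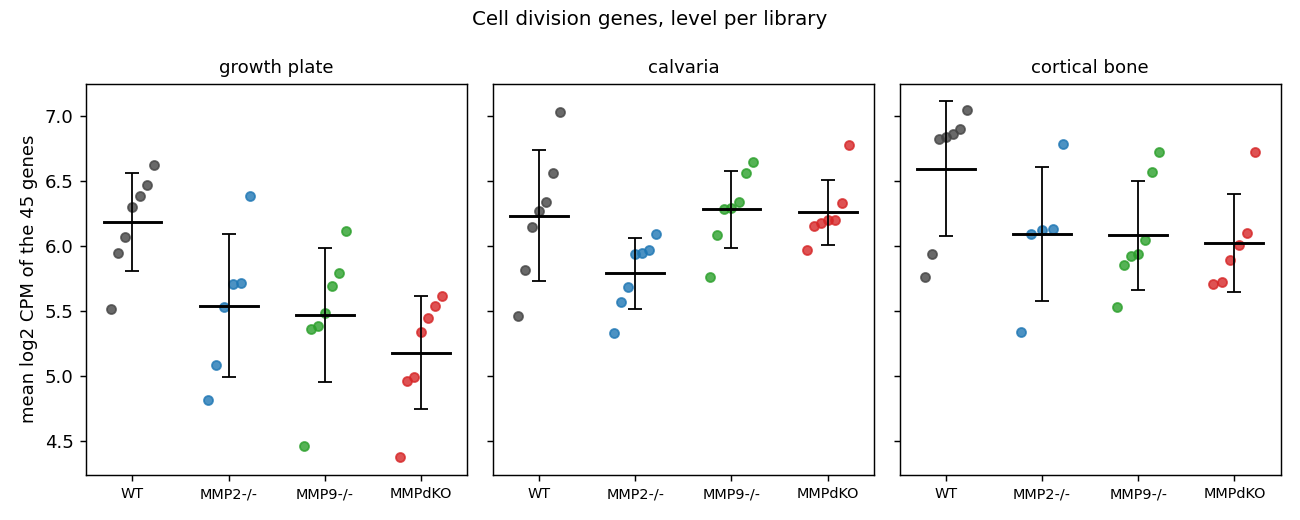
Member score (mean log2 CPM of the 45 cell division genes) of each of the 80 libraries by tissue and genotype, where points are libraries and bars are the mean and SD of a group. The MMPdKO growth plates (4.38 to 5.61) lie lowest, and the WT growth plates (5.51 to 6.62) lie within the range of the WT calvariae (5.46 to 7.03).

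The comparison of MMPdKO with WT growth plates asks what the loss of both gelatinases goes with in the growth plate samples, which held blood cell and muscle markers beside those of cartilage. Of the 44 members tested, 34 were lower in MMPdKO growth plates and none was higher, with a median log2 fold change of -0.97 over the members and of 0.0019 over all 8965 genes tested. A gene was called where edgeR's quasi-likelihood test gave a Benjamini-Hochberg adjusted p under 0.05 over all genes with at least 15 counts in 1 library of the fit, and 5.4% of all tested genes were called lower (484 lower, 347 higher). All roles had lower members, among them all 4 of the cyclins with Cdk1, all 5 genes of DNA synthesis, 7 of 8 licensing genes and 7 of 8 spindle genes. Bub1, a kinase of the spindle checkpoint with at most 10 counts in any library, did not reach the count minimum in any comparison.

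The member with the smallest adjusted p was E2f8, an atypical E2F that represses E2F targets late in S phase. Its lowest, median and highest CPM were 36.0, 50.4 and 79.3 in the WT growth plates and 6.44, 17.9 and 26.9 in the MMPdKO growth plates. The groups did not overlap, and E2f8 was 2.99-fold lower in MMPdKO (log2 fold change -1.58, SE 0.249, adjusted p = 0.00219 with edgeR). Uhrf1, which carries DNA methylation over to the new strand, was at 55.6, 93.5 and 130 CPM in WT and at 14.6, 48.9 and 71.3 in MMPdKO, and was 1.98-fold lower (edgeR adjusted p = 0.0139) with some overlap of the groups. E2f1, an activator of the S phase genes, was at 38.5, 49.8 and 58.8 CPM in WT and at 35.4, 43.9 and 80.5 in MMPdKO. It was the only tested member whose fitted change was not below 0 (log2 fold change 0.03, approximate interval from the SE -0.34 to 0.41, edgeR adjusted p = 0.947).

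Among the licensing genes, Mcm2 to Mcm7 code for the 6 subunits of the replicative helicase, and all were lower. Mcm7 was at 154, 202 and 317 CPM in WT growth plates and at 70.7, 116 and 139 in MMPdKO, without overlap (1.87-fold lower, edgeR adjusted p = 0.00489). Mcm5 was at 116, 180 and 215 CPM in WT and at 48.7, 87.4 and 111 in MMPdKO, also without overlap (log2 fold change -1.06, SE 0.183, edgeR adjusted p = 0.00372). The other subunits overlapped between the groups, with log2 fold changes from -0.79 (Mcm6) through -0.88 (Mcm3) and -0.97 (Mcm2) to -1.33 (Mcm4). Cdt1, which loads the helicase onto origins, had a log2 fold change of -0.89 (edgeR adjusted p = 0.0102). Cdc6, the other loader, was measured at 4.28 to 50.4 CPM in WT and 4.87 to 25.3 in MMPdKO and did not pass the test (log2 fold change -1.13, edgeR adjusted p = 0.075).

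All 5 genes of DNA synthesis were lower in MMPdKO growth plates. Rrm1, the large subunit of ribonucleotide reductase, which makes deoxyribonucleotides, was at 137, 214 and 288 CPM in WT (mean 210 ± 48.9) and at 97.5, 105 and 123 in MMPdKO (mean 109 ± 10.9; SD, n = 7 each). The 7 MMPdKO libraries lay close together below all WT libraries, and the difference was 1.87-fold (log2 fold change -0.91, SE 0.151, edgeR adjusted p = 0.00295). Rrm2, the small subunit, had a log2 fold change of -1.40 and Pcna, the sliding clamp of the DNA polymerases, one of -1.18. Tyms and Tk1, which supply thymidylate, had log2 fold changes of -0.98 and -0.58, the latter with an edgeR adjusted p of 0.0438.

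Ccna2 and Ccnb1 had the largest log2 fold changes among the called members. Ccna2, the cyclin of S phase and G2, was at 34.2, 91.5 and 162 CPM in WT growth plates and at 12.2, 22.9 and 48.0 in MMPdKO, with overlap between the lowest WT and the highest MMPdKO library (3.69-fold lower, log2 fold change -1.88, SE 0.323, edgeR adjusted p = 0.00355). Ccnb1, a mitotic cyclin, was at 10.7, 24.0 and 35.1 CPM in WT and at 0, 3.37 and 15.6 in MMPdKO (3.38-fold lower, edgeR adjusted p = 0.0209), with low counts in both groups. Ccnb2, the second B-type cyclin, had a log2 fold change of -1.13. Cdk1, the kinase that these cyclins activate, was at 66.8, 134 and 173 CPM in WT and at 48.7, 67.3 and 89.3 in MMPdKO and was 1.87-fold lower (edgeR adjusted p = 0.0109).

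**Figure D2:**
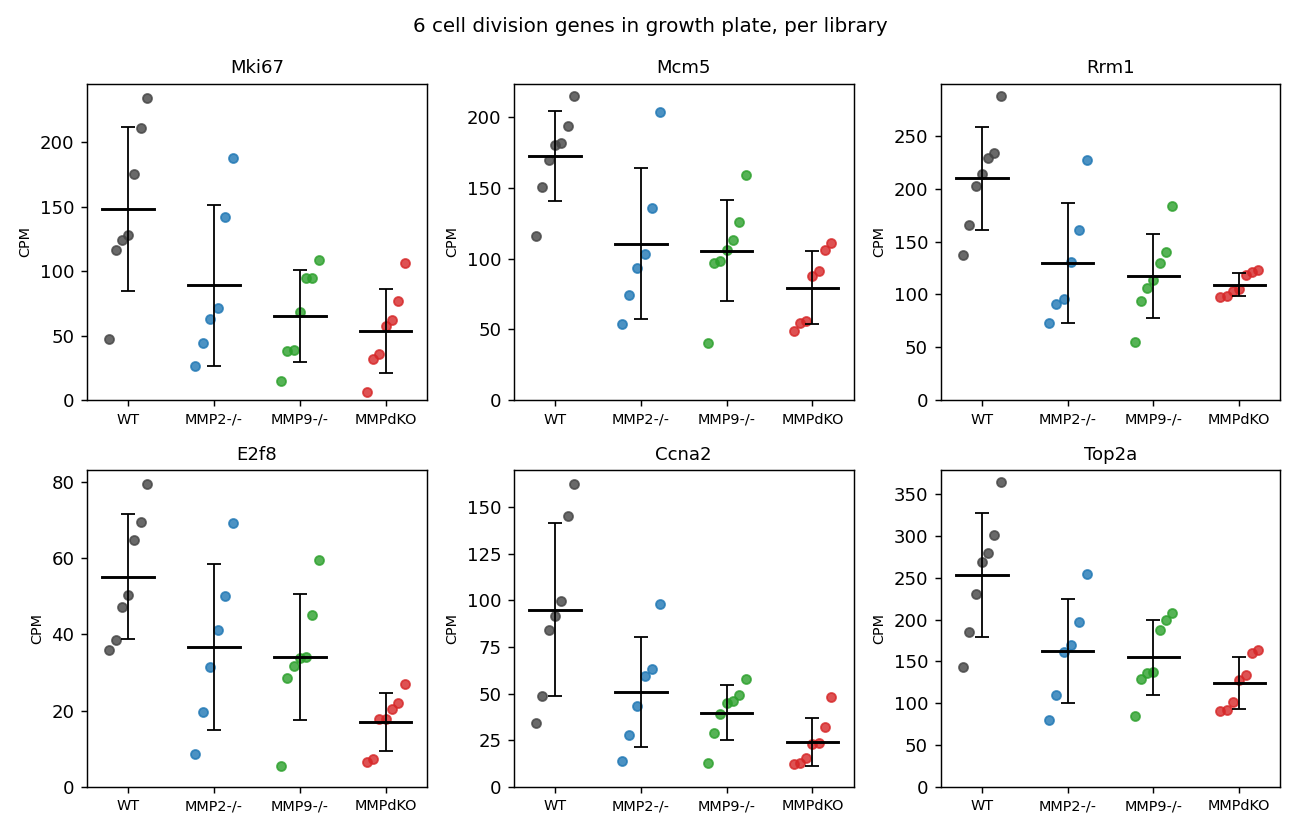
CPM (y axes) of Mki67, Mcm5, Rrm1, E2f8, Ccna2 and Top2a in each growth plate library of the 4 genotypes, where points are libraries and bars are group means with SD. Mcm5, Rrm1 and E2f8 in MMPdKO lie below all WT libraries, and the MMP2-/- and MMP9-/- libraries overlap both groups.

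Among the mitotic regulators, the chromosomal passenger kinase Aurkb (log2 fold change -1.18, edgeR adjusted p = 0.00489), its partner Birc5 (-1.02) and the centrosomal kinase Aurka (-1.03) were lower in MMPdKO. Aurkb was at 54.0 to 88.6 CPM in WT and at 12.2 to 51.2 in MMPdKO, without overlap. Plk1, the kinase of mitotic entry and exit, was at 85.6, 119 and 231 CPM in WT and at 53.6, 82.6 and 126 in MMPdKO, and its log2 fold change of -0.56 did not pass the test (edgeR adjusted p = 0.0972). Neither did Bub1b of the spindle checkpoint (-0.45, adjusted p = 0.217) nor Cdc20, the activator of the anaphase promoting complex (-0.48, adjusted p = 0.288). Of the centromere genes, Cenpa, the histone H3 variant that marks the centromere, was at 89.8, 170 and 203 CPM in WT and at 39.0, 76.9 and 112 in MMPdKO (1.98-fold lower, edgeR adjusted p = 0.0075). The kinetochore motor Cenpe (-0.56, adjusted p = 0.236) and the kinetochore protein Cenpf (-0.56, adjusted p = 0.458) did not pass.

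Of the spindle genes, Kif23, a kinesin of the central spindle, was at 40.6, 82.2 and 110 CPM in WT and at 13.4, 30.3 and 42.8 in MMPdKO, with overlap at the edge (2.5-fold lower, log2 fold change -1.32, SE 0.236, edgeR adjusted p = 0.00423). Stmn1, which destabilizes microtubules, was at 131, 175 and 223 CPM in WT and at 78.1, 96.3 and 145 in MMPdKO (1.62-fold lower, edgeR adjusted p = 0.0129). The motors Kif11 (log2 fold change -0.84) and Kif20a (-1.13), the spindle assembly factor Tpx2 (-1.02) and the microtubule binding proteins Nusap1 (-1.32) and Hmmr (-1.40) were lower too. Prc1, which bundles midzone microtubules, was not called (-0.80, edgeR adjusted p = 0.0943).

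Top2a, the topoisomerase that untangles sister DNA, was at 143, 269 and 364 CPM in WT growth plates (mean 253 ± 73.8) and at 90.2, 128 and 163 in MMPdKO (mean 124 ± 30.7; SD, n = 7 each), and was 1.97-fold lower (edgeR adjusted p = 0.00567). The condensin subunits Smc4 (log2 fold change -0.94, adjusted p = 0.00883) and Ncapd2 (-0.89, adjusted p = 0.00616) were lower as well, Ncapd2 without overlap. Smc2, the partner of Smc4, was at 0 to 24.0 CPM in MMPdKO and was not called (-0.84, adjusted p = 0.274). In cytokinesis, Racgap1 of the centralspindlin complex was at 63.5, 92.0 and 125 CPM in WT and at 36.5, 51.5 and 72.7 in MMPdKO (1.67-fold lower, edgeR adjusted p = 0.0181), and the actin binding protein Anln, at 0 to 22 CPM in WT, was not called (-0.69, adjusted p = 0.41). Mki67, whose protein Ki-67 coats mitotic chromosomes and is the usual marker of cycling cells, was at 47.1, 128 and 234 CPM in WT (mean 148 ± 63.7) and at 6.44, 57.6 and 106 in MMPdKO (mean 53.8 ± 32.7; SD, n = 7 each), and was 2.6-fold lower (log2 fold change -1.38, SE 0.334, edgeR adjusted p = 0.0159) with overlapping groups.

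With the promoter sets, members called lower in this comparison were 13 of the 20 tested ones with TTTGAA, 22 of 29 with CCAAT and 8 of 8 with either E2F form. These counts describe the sets, beside 34 of 44 members in all. Reads of 8 members cannot be assigned with certainty because they overlap other genes of the table (Mcm7, Tk1, E2f8, Ccna2, Cdc20, Kif20a, Nusap1 and Prc1), and the strand used in counting is not stated.

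Markers of blood cells moved with the members in the same comparison. In MMPdKO against WT growth plates 11 of 12 erythroid, 11 of 13 neutrophil and 7 of 10 B cell precursor markers tested were lower, with median log2 fold changes of -1.17, -1.17 and -1.10. The summed CPM of the erythroid markers was 56700 to 146000 in WT and 11600 to 70800 in MMPdKO, that of the neutrophil markers 3420 to 9650 and 665 to 3630, and that of the B cell markers 516 to 1030 and 90.2 to 389. The chondrocyte markers were at 5980 to 37600 and 16200 to 73900, with 1 of 12 called higher, and both hypertrophic markers, Col10a1 and Ihh, were higher. With the erythroid score as a covariate 0 members were called (median log2 fold change -0.20), with the neutrophil score 0 (-0.43) and with the chondrocyte score 36 (-1.07), and without the 5 growth plate libraries of low chondrocyte score 31 were called (-1.02). The share of all genes called in these fits is not given here. The erythroid score was 8.44 to 10.3 in WT and 6.67 to 8.73 in MMPdKO, so that score and genotype can hardly be told apart. A count of 0 there does not mean a log2 fold change of 0. Over all alternatives Kif23 stayed between -1.41 and -0.92, while Uhrf1 ran from -1.11 to 0.066. Kif23 kept its call in 24 and Uhrf1 in 23 of 27 alternatives, and both lost it with the erythroid and with the neutrophil score. Whether the number of blood precursors accounts for the lower members was not tested.

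**Figure D3:**
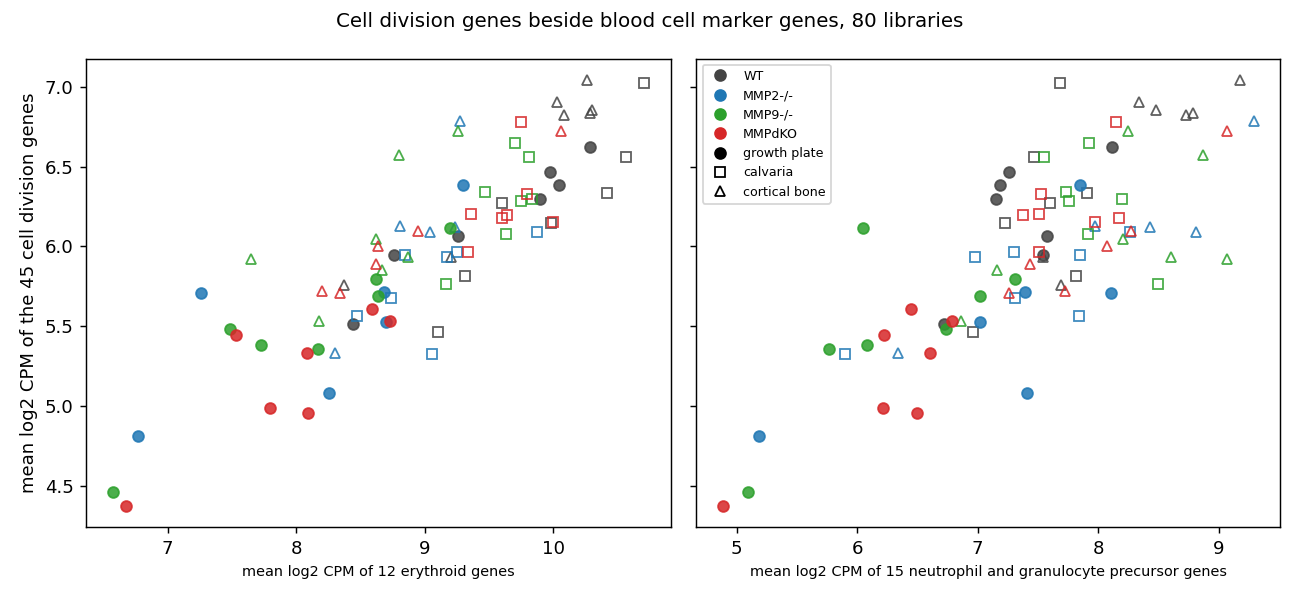
Member score of each library (y axis, mean log2 CPM) against the erythroid and the neutrophil marker scores (x axes, mean log2 CPM), with colours for the genotypes and symbols for the tissues. The MMPdKO growth plates combine member scores of 4.38 to 5.61 with erythroid scores of 6.67 to 8.73, and the WT growth plates member scores of 5.51 to 6.62 with erythroid scores of 8.44 to 10.3.

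The single knockouts were compared with the same WT growth plate libraries. In MMP9-/- growth plates all 44 tested members had fitted changes below 0, with a median of -0.735 against 0.012 over all 10160 genes, but none was called and 0.463% of all genes were. The members nearest to the threshold were Birc5 (log2 fold change -0.95) and Ccna2 (-1.27), each with an edgeR adjusted p of 0.0576. By an unadjusted p under 0.05, 40 members were lower, beside 1836 of all 10160 genes in either direction. DESeq2 called 20 members, among 369 genes in all. The edgeR count of members depended on single libraries, with 22 called without MMP9-/- replicate 5, 14 without WT replicate 2 and 1 without MMP9-/- replicate 1, and 31 were called with the chondrocyte score as a covariate. Shares of all genes called in these refits are not given here, so the counts cannot be set against them. Of the marker lists, 1 of 12 erythroid, 2 of 13 neutrophil and 0 of 10 B cell markers were called lower, with median log2 fold changes of -1.013, -1.004 and -0.92. The erythroid score was 9.52 ± 0.71 in WT, 8.06 ± 0.875 in MMP9-/- and 7.93 ± 0.693 in MMPdKO growth plates (SD, n = 7 each), and the neutrophil score 7.36 ± 0.436, 6.29 ± 0.771 and 6.24 ± 0.63, so that both scores lay as low in MMP9-/- as in MMPdKO to within 1 SD. The part of these cells was not tested.

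In MMP2-/- growth plates 0 of 44 members were called by edgeR and 0 by DESeq2, while 26 had an unadjusted p under 0.05, beside 761 of all 9717 genes (median log2 fold change -0.62, against 0.04 over all genes, of which 0.0515% were called by edgeR). Mki67 was at 26.8, 67.3 and 188 CPM in these libraries and at 14.7, 68.2 and 109 in MMP9-/-. Both medians lay near the 57.6 CPM of MMPdKO, and both ranges overlapped that of WT. In MMP2-/- growth plates 0 of 12 erythroid and 0 of 14 neutrophil markers were called, with median log2 fold changes of -0.94 and -0.04, and their part was not tested. Rrm1 was at 72.8, 113 and 227 CPM in MMP2-/- and at 55.2, 114 and 184 in MMP9-/-, a wider spread than the 97.5 to 123 of MMPdKO. The difference between the MMPdKO effect and the sum of both single effects was tested as an interaction in the 4 growth plate genotypes. No member was called and 0% of all genes were (median 0.365 over the members and -0.05 over all genes, smallest member adjusted p 0.921 with edgeR, 2 members at an unadjusted p under 0.05 beside 519 of all 10461 genes, 0 by DESeq2).

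**Figure D4:**
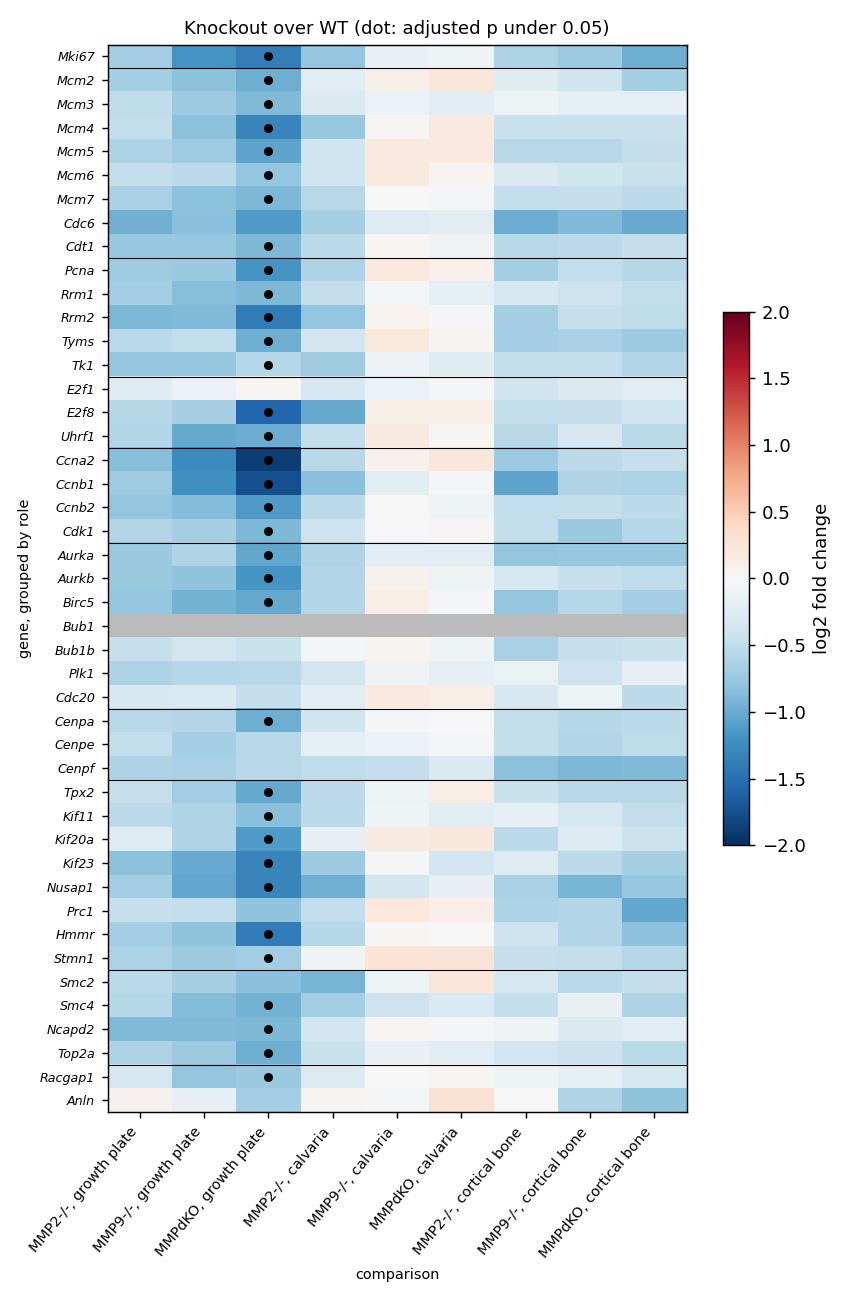
Log2 fold change of each member (rows, grouped by role) in the 9 comparisons of a knockout with WT (columns, by tissue), where a dot marks a called member and grey a gene not tested. Calls appear in the MMPdKO growth plate, where 34 of 44 tested members were lower.

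In the calvaria the members of MMP9-/- and MMPdKO mice had median fold changes near 0 on the log2 scale. For MMP9-/- 0 of 44 members were called and 0 had an unadjusted p under 0.05, beside 787 of all 10282 genes (edgeR smallest adjusted p 0.752, median log2 fold change -0.0045, DESeq2 0, and 0.0778% of all genes called by edgeR). For MMPdKO 0 were called and 1 had an unadjusted p under 0.05, beside 579 of all 10272 genes (edgeR smallest adjusted p 0.861, median -0.02, DESeq2 0, 0.0292% of all genes called by edgeR). Mki67 was at 69.3, 167 and 355 CPM in WT calvariae, 85.3, 155 and 190 in MMP9-/- and 78.8, 130 and 348 in MMPdKO, with wide overlap. For MMP2-/- the median was -0.52, and 23 members had an unadjusted p under 0.05, beside 883 of all 9711 genes. EdgeR called 0 members (smallest adjusted p 0.187) and 0.196% of all genes, and DESeq2 called 1 member, among 53 genes in all. Mki67 was at 70.8, 93.4 and 131 CPM there. The summed CPM of the erythroid markers was 61300 to 105000 in the MMP2-/- calvariae and 114000 to 175000 in WT, without overlap (2 of 12 markers called lower, median log2 fold change -0.67), and its part was not tested.

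In the cortical bone the medians of all 3 knockouts were below 0 without calls. They were -0.48 for MMP2-/-, -0.48 for MMP9-/- and -0.525 for MMPdKO, against -0.0034, 0.017 and 0.012 over all genes. With edgeR and with DESeq2 0 members were called in each, and 0.0537%, 0.0215% and 0.0221% of all genes were called by edgeR. At an unadjusted p under 0.05 there were 12, 15 and 21 members, beside 500 of all 9305, 879 of all 9311 and 987 of all 9035 genes. Cdk1 was at 85.1, 237 and 253 CPM in WT cortical bones and at 98.9, 125 and 200 in MMP2-/-, 72.8, 99.9 and 173 in MMP9-/- and 81.9, 100 and 210 in MMPdKO. The knockout medians were lower and the ranges overlapped. The summed CPM of the erythroid markers had medians of 141000 in WT, 66100 in MMP2-/-, 69400 in MMP9-/- and 55900 in MMPdKO cortical bones, with median log2 fold changes of -0.75, -0.90 and -0.86 and 0, 1 and 0 of 12 markers called lower, and their part was not tested. The interactions for calvaria (median 0.41, 8 members at an unadjusted p under 0.05, beside 657 of all 10660 genes) and for cortical bone (0.39, 0 members, beside 335 of all 9554 genes) gave 0 called members by either tool, with 0% of all genes called by edgeR in each.

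Whether a knockout effect differed between tissues was tested directly in the 4 groups concerned, with no block for mice that gave both tissues. For MMPdKO, the effect in the growth plate was lower than that in the calvaria for 9 of 44 members, beside 1.82% of all genes called lower, with a median difference of -0.96 over the members and -0.07 over all genes. They were Mcm2, Mcm5, Mcm7, E2f8, Ccna2, Aurkb, Tpx2, Stmn1 and Ncapd2. The log2 difference was -1.23 for Mcm2 (SE 0.264, edgeR adjusted p = 0.0122) and -2.14 for Ccna2 (adjusted p = 0.0225). In the data behind it, Ccna2 was at 58.2, 94.3 and 193 CPM in MMPdKO calvariae against 12.2, 22.9 and 48.0 in MMPdKO growth plates, and the groups did not overlap. DESeq2 called 17 members, among 549 genes in all, and with the erythroid or the neutrophil score as a covariate 0 members were called. The share of all genes called in these covariate fits is not given here.

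The other differences between tissues had no called member with edgeR. For MMP9-/-, growth plate minus calvaria had a median of -0.77 with 25 members at an unadjusted p under 0.05 (beside 1861 of all 10927 genes) and 4 called by DESeq2 among 311 genes in all (smallest edgeR adjusted p 0.0652, 0.65% of all genes called by edgeR). Growth plate minus cortical bone and cortical bone minus calvaria had medians of -0.21 and -0.52, with 1 and 5 members at an unadjusted p under 0.05, beside 419 of all 10487 and 1008 of all 10486 genes. DESeq2 called 0 members there, and edgeR 0% of all genes. For MMPdKO the same differences had medians of -0.38 and -0.55, with 5 members each at an unadjusted p under 0.05 (beside 588 of all 9682 and 798 of all 10437 genes), 0 called by DESeq2 and 0% of all genes called by edgeR. For MMP2-/- all 3 differences had 0% of all genes called, medians between -0.10 and 0.03 and 0 members called by DESeq2. There 1 member had an unadjusted p under 0.05, in growth plate minus cortical bone, beside 263 of all 10203 genes.

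The tissues of each genotype were compared next, and 4 to 6 mice of a genotype gave both tissues of a pair. In WT mice the growth plate did not differ from the calvaria in any member by edgeR or DESeq2 (1 at an unadjusted p under 0.05, beside 1727 of all 9869 genes, smallest adjusted p 0.281, median log2 fold change -0.09), while 5.05% of all genes were called. Against the cortical bone the median was -0.47, 17 members were lower by an unadjusted p under 0.05 (beside 1693 of all 9491 genes in either direction), and none was called by either tool (edgeR smallest adjusted p 0.0982, 2.21% of all genes). The cortical bone over the calvaria had a median of 0.34 and 7 members higher by an unadjusted p under 0.05, beside 1955 of all 9874 genes in either direction. EdgeR called 0 members (smallest adjusted p 0.0543, 5.37% of all genes) and DESeq2 1, among 728 genes in all. In both pairs with the calvaria, the share of members at that unadjusted p was below the share of all genes. Without WT cortical bone replicate 5, 8 members were called between growth plate and cortical bone, and without WT calvaria replicate 3, 6 between the bones.

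In MMP2-/- mice no member was called by edgeR in any pair of tissues. The growth plate had medians of -0.20 over the calvaria and -0.62 over the cortical bone, with 3 and 17 members at an unadjusted p under 0.05 (beside 1697 of all 9703 and 1305 of all 9825 genes), 0 by DESeq2, and 4.57% and 0.377% of all genes called. The cortical bone over the calvaria had a median of 0.35 in the 43 members tested, with 11 at an unadjusted p under 0.05 (beside 1386 of all 9149 genes), 1 by DESeq2 (among 430 genes in all) and 3.91% of all genes called by edgeR. Cenpf did not reach the count minimum there. Without MMP2-/- cortical bone replicate 4 edgeR called 6 members in this pair, and without MMP2-/- growth plate replicate 1 it called 3 between growth plate and calvaria.

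In MMP9-/- mice 37 of 44 members were lower in the growth plate than in the calvaria, beside 14.5% of all genes called lower, with a median of -0.83 against 0.006 over all genes. All 8 licensing genes, all 5 genes of DNA synthesis and all 4 of the cyclins with Cdk1 were among them, as were 5 of 6 mitotic regulators and 7 of 8 spindle genes. Birc5, which protects cells from apoptosis and anchors the passenger complex, was 2.18-fold lower (log2 fold change -1.12, SE 0.168, edgeR adjusted p = 3.54e-05). Mcm7 was at 53.4, 120 and 197 CPM in the growth plates and at 219, 244 and 354 in the calvariae, without overlap (2.15-fold lower, edgeR adjusted p = 0.000115). Uhrf1 was 2.46-fold lower (adjusted p = 0.000176), with 18.4, 44.1 and 92.1 CPM in the growth plates and 99.3, 121 and 140 in the calvariae, also without overlap. Ccna2 was 2.36-fold lower (adjusted p = 0.000108) and Cdt1 1.91-fold (adjusted p = 0.000653), and the 7 members not called were Aurka, E2f1, Cenpf, Nusap1, Smc2, Smc4 and Anln.

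In MMPdKO mice 37 of 44 members were likewise lower in the growth plate than in the calvaria, beside 14.1% of all genes called lower, with a median of -1.01 against -0.02 over all genes. Mcm2 was 2.64-fold lower (log2 fold change -1.40, SE 0.164, edgeR adjusted p = 2.05e-06). E2f8 was at 6.44, 17.9 and 26.9 CPM in the growth plates and at 48.8, 71.8 and 111 in the calvariae, without overlap (4.06-fold lower, edgeR adjusted p = 3.72e-06). Rrm1 was at 97.5 to 123 CPM and at 156, 196 and 237, again without overlap. Mcm7 was 2.21-fold lower (edgeR adjusted p = 5.73e-06), Ccna2 3.98-fold (1.72e-05) and Mcm5 2.48-fold (1.91e-05). The members not called were E2f1, Bub1b, Cenpe, Cenpf, Kif11, Smc2 and Smc4, of which E2f1, Cenpf, Smc2 and Smc4 were not called in MMP9-/- either.

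Blood cell markers moved with these members too. In the growth plate over the calvaria, 11 of 12 erythroid, 14 of 14 neutrophil and 6 of 10 B cell markers were lower in MMP9-/-, and 12 of 12, 14 of 14 and 6 of 10 in MMPdKO. The summed erythroid CPM was 11400 to 78200 in the MMP9-/- growth plates and 91000 to 176000 in the calvariae, and 11600 to 70800 and 118000 to 167000 in MMPdKO, without overlap in either. With the erythroid or the neutrophil score as a covariate 0 members were called in both genotypes, with the chondrocyte score 1 in MMP9-/- and 0 in MMPdKO, and without MMP9-/- growth plate replicate 7, the one library of low chondrocyte score in these groups, 35 were called in MMP9-/-. How many of all genes were called in these fits is not given here, so a count of 0 may not be particular to the members. Score and tissue can hardly be told apart in these fits, and the part of blood cells in these differences was not tested.

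Between growth plate and cortical bone, 14 of 44 members were lower in the growth plate in MMP9-/- (4.03% of all genes called lower, median -0.68 against -0.0067 over all genes) and 25 of 43 in MMPdKO (5.42%, median -0.84 against -0.02). In MMP9-/- the smallest adjusted p was that of Smc4 (2.13-fold lower, edgeR adjusted p = 0.0017), followed by Ccna2 (1.98-fold, 0.0129), Birc5, Top2a and Uhrf1. In MMPdKO, Ccna2 was 3.23-fold lower (adjusted p = 0.00324), Top2a 1.86-fold (0.00341) and Rrm2 2.62-fold (0.004), followed by Mcm3 and Mcm6. Top2a was at 90.2, 128 and 163 CPM in the MMPdKO growth plates and at 194, 209 and 336 in the cortical bones, without overlap. Neutrophil markers were lower in the growth plate for 13 of 14 in both genotypes and erythroid markers for 0 of 12 in MMP9-/- and 4 of 12 in MMPdKO, and 0 members were called in either once the neutrophil score entered the fit. For that fit the share of all genes called is not given here. In MMP9-/- the count ran from 3 (without growth plate replicate 3 or 4, or cortical bone replicate 6) to 25 (without cortical bone replicate 3), with 22 without growth plate replicate 5, 9 and 7 without growth plate replicates 2 and 6, and 4 without cortical bone replicate 4, and in MMPdKO it was 12 without cortical bone replicate 2 and 16 without growth plate replicate 6. With the mouse as a replicate block, over the mice that gave both tissues, 4 members were called in MMP9-/- and 7 in MMPdKO, against 2 and 8 for the same libraries with no block.

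**Figure D5:**
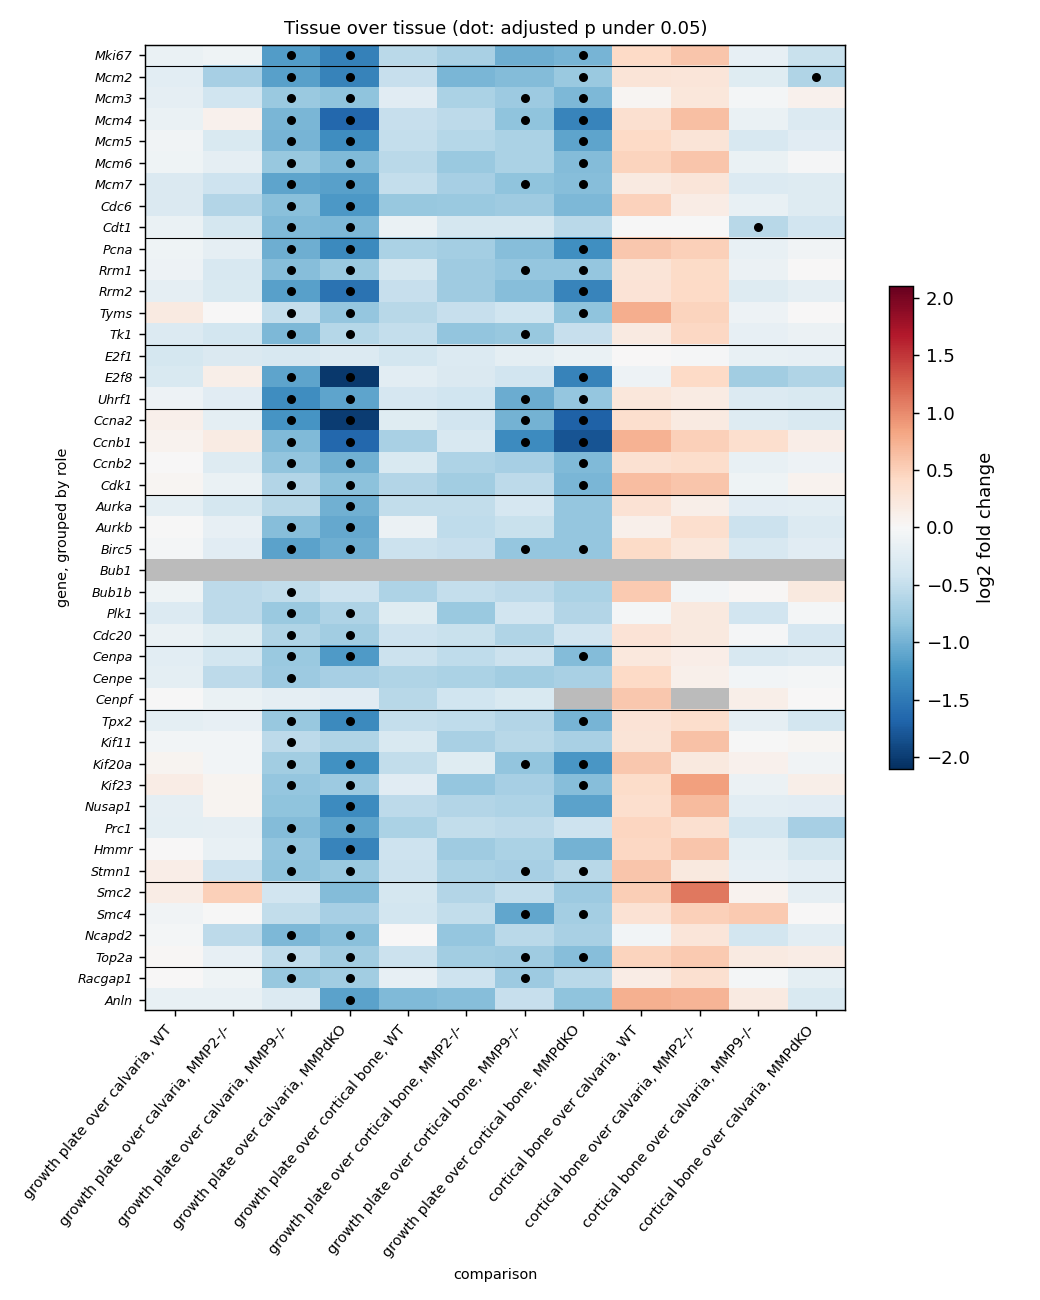
Log2 fold change of each member (rows, grouped by role) between tissues in each genotype (columns), where a dot marks a called member and grey a gene not tested. The growth plate over calvaria columns of MMP9-/- and MMPdKO hold 37 lower members each, and those of WT and MMP2-/- hold 0.

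Between the bones themselves 1 member was called in each of these genotypes. Cdt1 was 1.5-fold lower in the cortical bone than in the calvaria in MMP9-/- (log2 fold change -0.59, edgeR adjusted p = 0.0427, 5.04% of all genes called lower), and Mcm2 was 1.55-fold lower in MMPdKO (-0.63, adjusted p = 0.0248, 3.22%). The member medians were -0.16 and -0.21, against 0.0068 and 0.02 over all genes. In MMP9-/- the count was 0 without calvaria replicate 1, 3 or 6 or cortical bone replicate 1, 2, 5 or 7, and 2 and 3 without cortical bone replicates 4 and 6. In MMPdKO it was 0 without cortical bone replicate 1, 4 or 6 and 6 without replicate 2. With the mouse as a replicate block 10 members were called in MMP9-/- (9 lower, 1 higher) and 0 in MMPdKO, against 2 and 0 for the same libraries with no block. That the growth plate is lower than the calvaria in some genotypes and not in others was tested only through the differences of knockout effects above.

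Other genes of the cell cycle were read beside the members in the MMPdKO growth plates, where 484 of all 8965 genes tested were called lower than in WT and 347 higher. Of the other replication genes 7 of 14 tested were lower than in WT and none was higher, led by Gmnn, the inhibitor of Cdt1, at 27.8, 53.6 and 69.5 CPM in WT and 12.9, 21.9 and 24.6 in MMPdKO without overlap (2.57-fold lower, edgeR adjusted p = 0.00247), and by Fen1, which trims Okazaki fragments (2-fold lower, adjusted p = 0.00935). Of the other mitosis genes and their activators 8 of 18 were lower and none was higher, among them Cdca3 (-0.96, adjusted p = 0.00752) and Ube2c, the ubiquitin carrier of the anaphase promoting complex (-0.93, adjusted p = 0.0172). Of the G1 cyclins and their kinases 2 of 7 were lower and 1 was higher. Ccne1, the cyclin of S phase entry, was 2.22-fold lower (adjusted p = 0.00584) and Ccnd3 had a log2 fold change of -0.52 (adjusted p = 0.0391), while Ccnd1, a cyclin induced by growth signals, was at 36.9, 74.1 and 119 CPM in WT and 86.5, 120 and 142 in MMPdKO.

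Of 8 CDK inhibitors and pocket proteins, which hold the cycle back, 1 was called higher and 1 lower, beside 347 higher and 484 lower of all 8965 genes. Cdkn1a, which codes for p21, was at 298, 422 and 560 CPM in WT growth plates and at 523, 685 and 836 in MMPdKO, with a slight overlap (log2 fold change 0.73, edgeR adjusted p = 0.00827). Cdkn2d had a log2 fold change of -0.89 (adjusted p = 0.00935). Against the calvaria of the same genotype, Cdkn1a was higher in the growth plate in all 4 genotypes, in WT (log2 fold change 0.70, edgeR adjusted p = 0.00668), MMP2-/- (0.80, adjusted p = 0.00567), MMP9-/- (1.31, adjusted p = 1.38e-06) and MMPdKO (1.57, adjusted p = 2.35e-07). In the last, the MMPdKO calvariae were at 197, 215 and 340 CPM, below all MMPdKO growth plates. Cdkn1c, which codes for p57 and is known from chondrocytes that leave the cycle, was higher in the growth plate over the calvaria in MMP2-/- (1.46, edgeR adjusted p = 0.0147), MMP9-/- (2.17, adjusted p = 2.78e-05) and MMPdKO (1.79, adjusted p = 1.61e-05). Ccnd1 was 1.67-fold higher in MMP2-/- (edgeR adjusted p = 0.0452), 3.02-fold in MMP9-/- (adjusted p = 2.4e-06) and 2.75-fold in MMPdKO (adjusted p = 9.35e-06). Neither Cdkn1c nor Ccnd1 was called over the calvaria in WT. Over the cortical bone both were higher in the WT growth plate, with log2 fold changes of 1.71 (Cdkn1c, edgeR adjusted p = 0.0244) and 1.00 (Ccnd1, adjusted p = 0.0202). In MMP9-/- and MMPdKO, 9 and 10 of the 15 other replication genes and 11 and 10 of the 20 other mitosis genes were lower in the growth plate than in the calvaria. Of all genes, 14.5% and 14.1% were called lower there.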

How the data were processed

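Libraries of 80 samples of bone and growth plate were made, per the sample labels, with a bulk form of MARS-seq, which sequences transcripts near their 3′ ends. The study's methods instead name INCPM-mRNA-seq, based on the Transeq protocol, and which name applies was not settled here. The authors deposited raw counts. Per the labels, bcl2fastq 2.20.0.422 split the reads by sample, cutadapt trimmed them, STAR 2.7.3a placed them on GRCm38 and HTSeq assigned them to genes. The labels also list DESeq2 1.26.0. Whether molecular barcodes were collapsed, whether counting used strand, and which filter left 14688 genes (smallest maximum count 6) is not stated. The authors' normalized counts were not used. Groups and mice were taken from the sample labels.

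The test was glmQLFTest of edgeR 4.0.16 on these counts (quasi-likelihood, TMM, R 4.3.3), in the groups compared only, over genes with at least 15 counts in 1 library, with Benjamini-Hochberg adjustment over all genes tested, and a gene was called at an adjusted p under 0.05. DESeq2 1.42.0 was an alternative. The fits comprised 12 tissue comparisons, 9 knockout comparisons, 3 interactions and 9 differences of knockout effects. CPM were TMM-scaled over all 80 libraries. Standard errors were derived from the log2 fold change and the F statistic of the edgeR fit, and the interval is the log2 fold change plus and minus 2 standard errors. Knockouts and WT were different mice. Tissues of a genotype shared 4 to 6 mice, named in the sample descriptions, so that the mouse pairs them. The deviations of same-mouse libraries from their group means had a mean correlation of 0.017 (64 pairs, -0.319 to 0.333), against -0.00195 for different mice. No replicate pair matched within sampling noise (lowest chi-square per degree of freedom 2.05). On simulated counts for MMPdKO over WT growth plates (8965 genes, 200 changed), 47% of 2-fold and 95% of 4-fold changes were recovered and 5 unchanged genes called. Named were, beside the full member list, Mki67, the member with the highest mean log2 CPM of each role, and up to 5 called members with the smallest adjusted p per comparison. Other members are given by role, and Aurkb and Ncapd2 in MMPdKO growth plates were singled out after their values were seen. Of the other cell cycle lists, up to 2 called genes per list were named, and Ccnd1 in MMPdKO over WT growth plates was added after its values were seen. Members and lists were chosen with earlier results of these data known. Alternatives were other filters, normalization, tools, blocks, covariates and left-out libraries. Shares of all genes called are not given for the fits with blocks, covariates or left-out libraries. Figures were drawn with matplotlib 3.10.9 in Python 3.11.15.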

Additional observations from a re-analysis of the deposited data

Results flagged for a closer look

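In 9 of the 132 sets of values of 1 group examined (the member score and the CPM of the leading members), the highest library stood apart from the others by Dixon's criterion at the 95% level, which chance gives in about 5% of sets. In the growth plate these were Plk1 in WT replicate 3 at 231 CPM (next highest 138) and Stmn1 in MMP2-/- replicate 1 at 219 CPM (next 97.9). In the calvaria they were Mki67 in WT replicate 3 at 355 CPM (next 185) and, all in MMPdKO replicate 6, Mki67 at 348 CPM (next 152), Cenpa at 243 (next 191) and Top2a at 333 (next 220). In the cortical bone they were all in MMPdKO replicate 2, with Rrm1 at 337 CPM (next 174), Cenpa at 247 (next 148) and Top2a at 336 (next 230).

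For 9 members the effect of the double knockout differed between growth plate and calvaria in edgeR's test of the difference itself. The log2 differences (growth plate effect minus calvaria effect) were -1.23 for Mcm2, -1.27 for Mcm5, -0.885 for Mcm7, -1.74 for E2f8, -2.14 for Ccna2, -1.1 for Aurkb, -1.16 for Tpx2, -0.969 for Stmn1 and -0.87 for Ncapd2, with adjusted p from 0.0122 (Mcm2) to 0.0438 (Ncapd2). They were computed from the same WT and MMPdKO libraries as the knockout comparisons of each tissue and are not independent of these.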

How the results depend on the processing

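Values here are numbers of members called at an adjusted p under 0.05. The 34 lower members of MMPdKO over WT growth plates ran from 28 to 35 with 1 library left out, the 37 of growth plate over calvaria from 29 to 40 in MMP9-/- and from 32 to 38 in MMPdKO, and the 14 and 25 of growth plate over cortical bone from 3 to 25 in MMP9-/- and from 12 to 25 in MMPdKO. Of the comparisons with 0 or 1 called members, the range was 0 to 22 in MMP9-/- over WT growth plates, 0 to 8 in growth plate over cortical bone and 0 to 6 in cortical bone over calvaria of WT, 0 to 3 in growth plate over calvaria and 0 to 6 in cortical bone over calvaria of MMP2-/-, 0 to 3 (MMP9-/-) and 0 to 6 (MMPdKO) in cortical bone over calvaria, 0 to 1 in MMP2-/- over WT growth plates and 0 to 1 in MMPdKO over WT cortical bones (without MMPdKO replicate 2), and 0 to 0 in the others.

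With the erythroid score as a covariate, 0 members were called in growth plate over calvaria of MMP9-/- and MMPdKO, growth plate over cortical bone of MMPdKO, cortical bone over calvaria of both, MMPdKO over WT growth plates and the MMPdKO difference of growth plate and calvaria, while 9 were called in growth plate over cortical bone of MMP9-/-, 1 in growth plate over calvaria and 1 in growth plate over cortical bone of WT, and 12 and 2 in cortical bone over calvaria of WT and MMP2-/-. With the neutrophil score the same comparisons gave 0, except cortical bone over calvaria, with 2 in MMP9-/- and 5 in MMPdKO, and growth plate over cortical bone of MMP9-/- was at 0 too. With both scores 0 were called in the 3 tissue pairs of MMP9-/- and of MMPdKO, MMPdKO over WT growth plates and the MMPdKO difference. With the chondrocyte score, 6 and 3 were called in cortical bone over calvaria of WT and MMP2-/-, 1 and 0 in growth plate over calvaria of MMP9-/- and MMPdKO, 0 in growth plate over cortical bone of both and 31 in MMP9-/- over WT growth plates, and the 1 call between the bones of MMP9-/- was higher instead of lower. The scores and the members come from the same libraries. In MMP9-/- and MMPdKO, growth plate and calvaria differ in these scores, so that score and tissue can hardly be told apart there. The same holds for the chondrocyte score between growth plate and cortical bone of both. Some other pairs overlapped widely. The WT erythroid score was 8.44 to 10.3 in growth plate, 9.1 to 10.7 in calvaria and 8.37 to 10.3 in cortical bone. In MMP9-/- it was 6.57 to 9.19 in growth plate and 7.65 to 9.26 in cortical bone. Score and genotype can hardly be told apart in MMPdKO over WT growth plates. Shares of all genes called under the alternatives are not given here.

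DESeq2 called 20 in MMP9-/- over WT growth plates, 1 in MMP2-/- over WT calvariae, 1 each in cortical bone over calvaria of WT and MMP2-/-, and 4 and 17 in the MMP9-/- and MMPdKO differences of growth plate and calvaria. In 1 fit of all 80 libraries, 7 were called in MMP9-/- over WT growth plates, 2 in cortical bone over calvaria of WT, 0 in that of MMP9-/- and of MMPdKO, 1 in growth plate over cortical bone of MMP2-/- and 1 in the MMPdKO difference. With filterByExpr, and with haemoglobin genes left out, 2 were called in cortical bone over calvaria of MMP9-/-. Without the 5 growth plate libraries of low chondrocyte score (chosen after seeing the data, as were the covariates of both scores and of chondrocytes), 4 were called in MMP9-/- over WT growth plates. The causes were not tested.

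The replicate numbers of the titles do not pair the libraries. With them as a block, 22 were called in MMPdKO over WT growth plates, and 2 and 0 in cortical bone over calvaria of MMP9-/- and MMPdKO. With the mouse as a block, 4, 10, 7 and 0 were called in growth plate over cortical bone and cortical bone over calvaria of MMP9-/- and in the same of MMPdKO, against 2, 2, 8 and 0 with no replicate block in the same libraries, and no other count of a tissue comparison changed by more than 1.5 times. The mouse block was fitted for tissue comparisons only. The differences of knockout effects had none, although libraries of the same mouse enter both of their tissues.

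Of the values of single named members under each alternative, 1451 kept direction and call, 362 lost the call and 25 changed sign, none of the latter with an adjusted p under 0.05. The log2 fold changes of these in growth plate over calvaria of MMP9-/- were, with the erythroid score, 0.061 (Mki67), 0.094 (Cdk1), 0.12 (Cenpa) and 0.13 (Top2a) and, with both scores, 0.22 (Mki67), 0.18 (Cdk1), 0.20 (Cenpa), 0.047 (Stmn1), 0.30 (Top2a) and 0.14 (Racgap1). In growth plate over cortical bone of MMP9-/- they were 0.0031 (Rrm1) with the neutrophil score and 0.046 (Mcm7) and 0.038 (Rrm1) with both. In MMPdKO they were 0.032 (Uhrf1) with the neutrophil score and 0.11 (Mki67) and 0.089 (Uhrf1) with both over the calvaria, and over the cortical bone 0.042 (Mcm3), 0.067 (Mcm6), 0.075 (Mcm7), 0.29 (Uhrf1), 0.13 (Cdk1) and 0.24 (Cenpa) with the neutrophil score and 0.10 (Ccna2) and 0.20 (Uhrf1) with both. In MMPdKO over WT growth plates Uhrf1 was at 0.066 with both. Members of few counts (Cenpf, Smc2, Anln) can be called by large differences alone.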
